A study of Homo sapiens with 6 samples.

Results

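The comparison described here sets the 2 libraries of K562 cells that carried a first shRNA against ZRSR2 (sh1) beside the 2 libraries that carried a second one (sh2), which makes 4 of the 6 libraries of the series. The other 2 libraries carried a control shRNA (Con_sh) and are used to show the baseline. K562 is an established human leukaemia line with erythroid and megakaryocytic features, and all 6 libraries came from cells of this line that had been transduced with an shRNA, so no untransduced cells are included. The titles number the libraries by experiment, 1 and 2, with each of the 3 shRNAs present once in each. Of the 241593 introns listed, 116627 (48.3%) averaged at least 50 reads over the 4 knockdown libraries and were tested. Of these, 115241 carried a gene name, in 12115 genes. The shallowest tested intron averaged 50 reads, and the deepest one left out averaged 49.75.

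ZRSR2 is a protein of the minor spliceosome, the machinery that removes the small class of U12-type introns, and it takes part in recognising the 3′ splice site. When a U12-type intron is not removed, the transcript keeps it, and reads run across the exon-intron boundaries in place of the spliced junction. With a pair of shRNAs against one target, differences found with both can be told from those found with one.

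Retention here is the percentage of boundary reads among boundary reads plus 2 times the spliced reads. Boundary reads summed to between 4387311 and 5199693 per library and spliced reads to between 82986327 and 101120454. All 14 of the K562 marker genes examined (GATA1, TAL1, globins and others) were at 1 or more CPM (spliced reads of a gene scaled to the library's total) in every library. So were 4 of the 6 lymphoid, 2 of the 5 myeloid and 3 of the 6 stromal or epithelial markers examined. Summed over each list, the lymphoid, myeloid and stromal or epithelial markers reached at most 42.5, 71.3 and 169 CPM in the knockdown libraries. The K562 markers summed to 6121 to 20979 there. Whether the paired libraries of an shRNA were grown as separate cultures is not given in the labels. The p-values therefore measure only how far these libraries spread, which may be technical. For introns that spread is mostly shared over all tested introns, not taken from each intron alone.

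ZRSR2 RNA did not differ between the shRNAs beyond the spread of the libraries. Spliced reads of ZRSR2 are given as CPM after TMM scaling of the library totals, as are the gene levels further below. They were 10.7 and 10.7 with sh1 and 10.2 and 12.8 with sh2, against 27.8 and 23.6 in the control libraries. The 4 knockdown libraries overlapped each other and all lay below both controls. The log2 difference of sh1 minus sh2 was -0.11 (SE 0.224, 95% interval -0.67 to 0.46; edgeR adjusted p = 0.959), an interval that leaves room for a difference of up to 0.67 on the log2 scale.

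A small group of introns was retained far more with sh1 than with sh2. Of the 116627 introns, 19 (0.0163%) passed the edgeR quasi-likelihood test at an adjusted p of 0.05, 13 of them more retained with sh1 (0.0111%) and 6 more retained with sh2 (0.00514%). The most distinct lay in ZC3H4, THOC2, PCID2, PPME1 and EED, where sh1 raised retention to between 13.1% and 37.6% on average while sh2 stayed at 5.61% or less. By DESeq2, 9 introns passed, 3 higher with sh1 and 6 higher with sh2, and 4 of them were among the 19 (ZC3H4, DDX39B and both introns opposite DDX19A). An adjusted p was missing there for 31656 of the 116627 introns, so the edgeR and DESeq2 counts do not cover the same set. DESeq2 did not call THOC2 (DESeq2 adjusted p = 0.0516), PCID2 (0.0882), PPME1 (0.37), EED (0.384), UBE2H (0.183) or CNST (0.357). An unadjusted p under 0.05 was found for 4511 introns, 1538 higher with sh1 and 2973 higher with sh2. The median log2 difference over all tested introns was -0.14. When boundary and spliced reads were scaled separately, which moves that median to 0.01, 84 introns passed, 69 higher with sh1 and 15 higher with sh2. Without 1 library the count was 43 (sh1 of experiment 2), 36 (sh2 of experiment 1), 31 (sh2 of experiment 2) and 20 (sh1 of experiment 1). With 2 times the lower boundary count used as the boundary reads, 0 introns passed by edgeR, and 2237 had an unadjusted p under 0.05. Among introns covered over at least 0.95 of their length, 0 of 45880 passed by edgeR, and 1809 had an unadjusted p under 0.05. The log2 difference of ZC3H4 was 4.42 and 4.52 at these settings, where no other tool was run.

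The intron of ZC3H4, a zinc finger protein that restrains transcription of non-coding RNA, lies at chr19:47081623-47082183. Retention was 41.6% and 22.0% with sh1, 1.23% and 2.69% with sh2 and 0.386% and 2.10% in the control. Both sh1 libraries were high, and the sh2 libraries overlapped the control. The boundary counts named A1 and A2 rose together, at 301 and 300 in sh1 of experiment 1 and at 4 and 4 in sh2 of the same experiment. Boundary against spliced reads differed by 4.52 on the log2 scale (SE 0.568; edgeR adjusted p = 2.11e-06).

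THOC2, the scaffold of the THO complex that couples transcription to mRNA export, held an intron at chrX:123610964-123611439. Retention was 52.2% and 23.1% with sh1, 4.66% and 6.56% with sh2 and 1.71% and 2.17% in the control. All 4 knockdown libraries stood above both controls, and both sh1 libraries stood above both sh2 libraries (log2 difference 3.29 with an SE of 0.458; edgeR adjusted p = 2.98e-05).

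PCID2, a subunit of the TREX-2 export complex, held one at chr13:113196226-113197018. There the values were 30.01% and 12.9% with sh1, 1.47% and 3.40% with sh2 and 1.47% and 2.07% in the control. The sh2 libraries overlapped the control, while both sh1 libraries did not (log2 difference 3.39 with an SE of 0.537; edgeR adjusted p = 4.62e-04). That of PPME1, a methylesterase of protein phosphatase 2A, at chr11:74203822-74204352, gave 19.5% and 6.65% with sh1, 1.97% and 1.93% with sh2 and 0.457% and 0.648% in the control (log2 difference 2.74; edgeR adjusted p = 0.00476). EED, a core subunit of the Polycomb repressive complex PRC2, gave 19.4% and 9.10% with sh1, 2.06% and 3.44% with sh2 and 1.2% and 1.5% in the control at chr11:86255288-86256386 (log2 difference 2.47; edgeR adjusted p = 0.0348). In both genes the sh1 libraries were highest, the sh2 libraries intermediate and the control libraries lowest, without overlap.

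Within sh1, experiment 1 gave the higher retention in each of these 5 introns. The calls of PPME1 (edgeR adjusted p = 0.62), PCID2 (0.0686) and EED (0.794) were lost without the sh1 library of experiment 1, and that of EED also without either sh2 library. ZC3H4 and THOC2 passed whichever of the 4 libraries was left out, with edgeR adjusted p of at most 2.85e-04 and 0.0413. Reads covered 100% of all 5 introns with either shRNA.

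**Figure D1:**
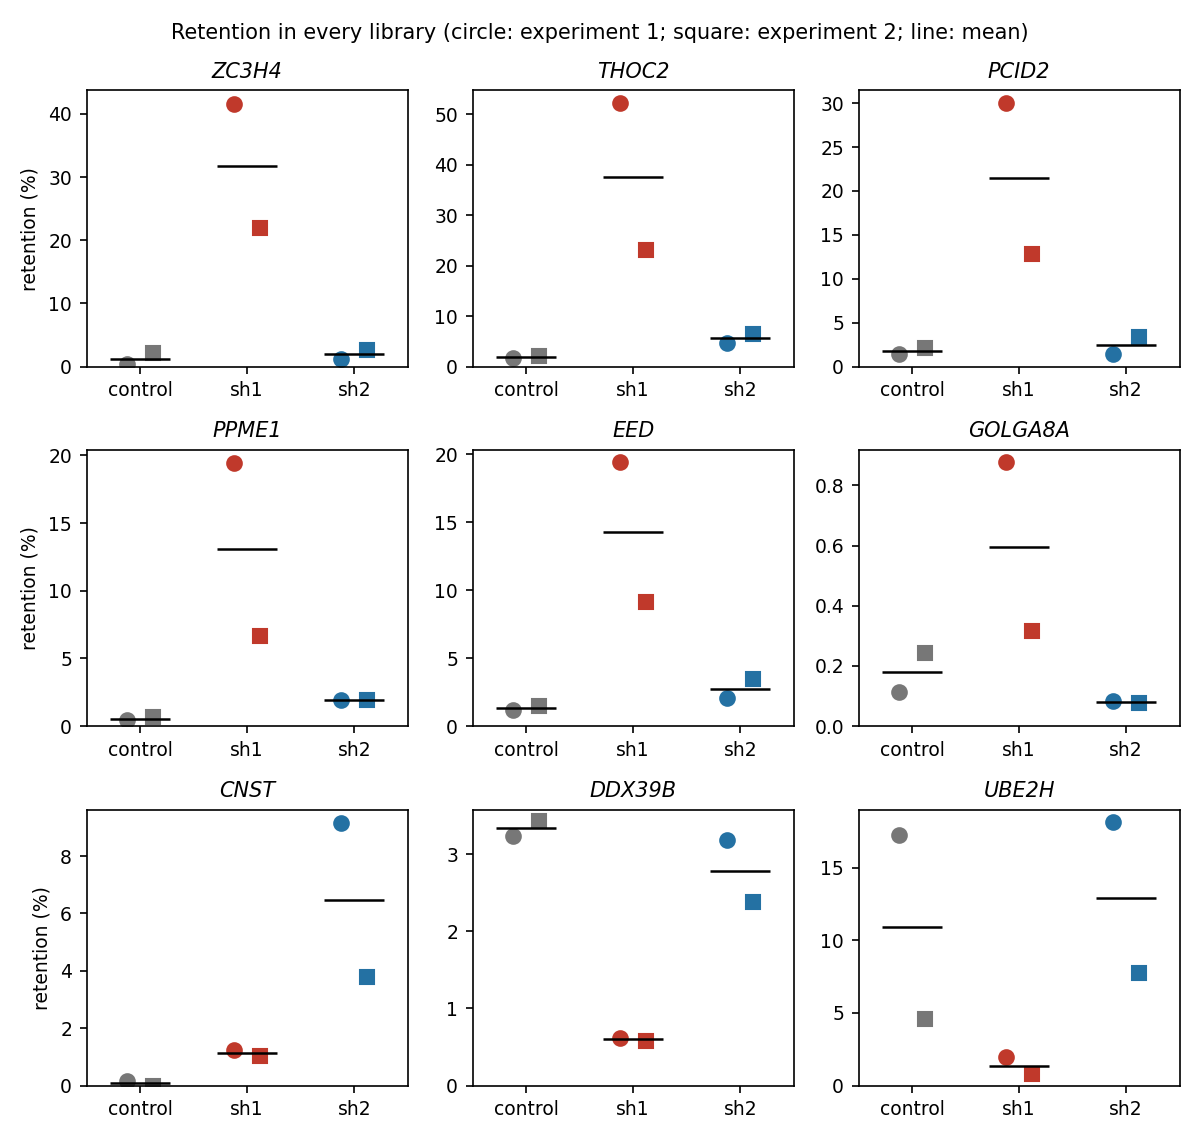
Retention in percent (vertical axis, a separate scale per gene) of 9 introns in the control, sh1 and sh2 libraries, with circles for experiment 1, squares for experiment 2 and a line at the mean of each pair. In ZC3H4 both sh1 libraries (41.6% and 22.0%) stand far above the sh2 libraries (1.23% and 2.69%), while in DDX39B the sh1 libraries (0.622% and 0.576%) stand below all others.

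In a smaller set, 3 introns with a named gene and changed boundary reads went the other way. CNST, which encodes a protein of connexin transport, had an intron at chr1:246634011-246634472 with 1.25% and 1.02% retention in sh1 and 9.16% and 3.79% in sh2, against 0.161% and 0% in the control. Both shRNAs stood above the control here, and sh2 stood above sh1 (log2 difference -2.51 with an SE of 0.523; edgeR adjusted p = 0.0496). With sh1 most boundary reads lay at A1 (23 and 14, with 3 and 3 at A2). With sh2 both boundaries held reads (73 and 19 at A1, 44 and 18 at A2). Spliced reads added to the difference, at 1029 and 827 with sh1 and 580 and 470 with sh2. The preceding intron of the same gene, at chr1:246631925-246633923, ran opposite, at 58.9% and 32.1% with sh1, 23.3% and 16.4% with sh2 and 5.82% and 5.11% in the control. It did not pass by itself (log2 difference 1.75 with an SE of 0.467; edgeR adjusted p = 0.563), though it did with the experiment as a block (3.89e-05). The CNST call at 246634011 was lost without either sh1 library or the sh2 library of experiment 1 (edgeR adjusted p up to 1).

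DDX39B, an RNA helicase of the TREX export complex, had an intron at chr6:31538856-31539146 that was less retained with sh1 than anywhere else. Its values were 0.622% and 0.576% with sh1, 3.18% and 2.38% with sh2 and 3.23% and 3.43% in the control, so that both sh2 libraries stood just below the control and both sh1 libraries far below it (log2 difference -2.24 with an SE of 0.402; edgeR adjusted p = 0.00497). The difference lay at one boundary: A2 held 5 and 9 reads with sh1 and 173 and 68 with sh2, while A1 held 54 and 35 against 45 and 40. A read-through gene, ATP6V1G2-DDX39B, overlaps this position, which makes the assignment uncertain. This call was lost without either sh1 library or the sh2 library of experiment 1 (edgeR adjusted p up to 0.103).

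UBE2H, an E2 ubiquitin-conjugating enzyme, had an intron at chr7:129879643-129880894 with 1.96% and 0.81% in sh1, 18.1% and 7.73% in sh2 and 17.3% and 4.59% in the control. The sh2 and control libraries overlapped and both sh1 libraries were lower (log2 difference -3.29 with an SE of 0.602; edgeR adjusted p = 0.00693), a call lost without the sh2 library of experiment 1 (1). Nearly all of these reads lay at A1, with 320 and 33 there and 14 and 0 at A2 with sh2. The same one-sided pattern held for a very low value in GOLGA8A, a golgin gene with near-identical copies and therefore uncertain. There retention was 0.877% and 0.316% with sh1 and 0.0826% and 0.0772% with sh2 at chr15:34381857-34381967 (edgeR adjusted p = 0.0275; up to 1 without the sh1 library of experiment 1 or either sh2 library), with 49 and 12 sh1 reads at A1 and 3 and 3 at A2.

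In the remaining 10 of the 19 introns the spliced reads contributed much or most of the difference. For 6 of them 1 library held at least 5 times the spliced CPM of the other 3, something seen in 0.285% of all tested introns (332). Of these 6, 4 lay within chr7:5390629-5500487, in TNRC18, its antisense gene TNRC18-AS1, FBXL18 and a stretch without a gene name. Each had 2912 to 3044 spliced reads in the sh2 library of experiment 2 and 14 to 239 in the other 3 knockdown libraries. The other 2 were introns of equal length in NOMO3 and LOC102723728, with 705 and 1237 spliced reads in the sh2 library of experiment 1 against 1 to 44 in the other 3; NOMO genes are near-identical copies and uncertain. Without the library concerned, none of these 6 passed (edgeR adjusted p = 1 for each). With the 332 introns left out, a choice made after seeing the data, 10 introns passed, 6 higher with sh1 and 4 with sh2, all of them among the 19. DENND4C, at chr9:19352666-19356971, had 9341 spliced reads in the sh2 library of experiment 1 and 926 to 2604 in the other 3. Its boundary reads numbered 10 and 14 with sh1 and 3 and 0 with sh2 (edgeR adjusted p = 4.54e-04).

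The last 3 of the 19 differed in spliced reads that were alike within each pair. Of these, 2 introns on the minus strand opposite DDX19A, a gene for an RNA helicase of mRNA export on the other strand, had few spliced reads with sh2. The first, at chr16:70349598-70366070, had 635 and 370 spliced reads with sh1, 44 and 36 with sh2 and 532 and 858 in the control. The second, at chr16:70368169-70371304, had 279 and 357, 28 and 23, and 245 and 423. In both, the sh2 libraries were low and the sh1 libraries lay in or near the control range, while boundary reads overlapped (18 to 31 and 26 to 33). AQP3, an aquaporin, had 80 and 82 spliced reads with sh1 and 4 and 3 with sh2 across chr9:33442212-33442851, but its control libraries held 2 and 98, as far apart as the shRNAs. The edgeR adjusted p was 0.00306, 0.0124 and 0.0491 for these 3, and each was lost without 2 or 3 of the 4 libraries in turn (highest adjusted p 0.119, 0.2 and 0.247).

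**Figure D2:**
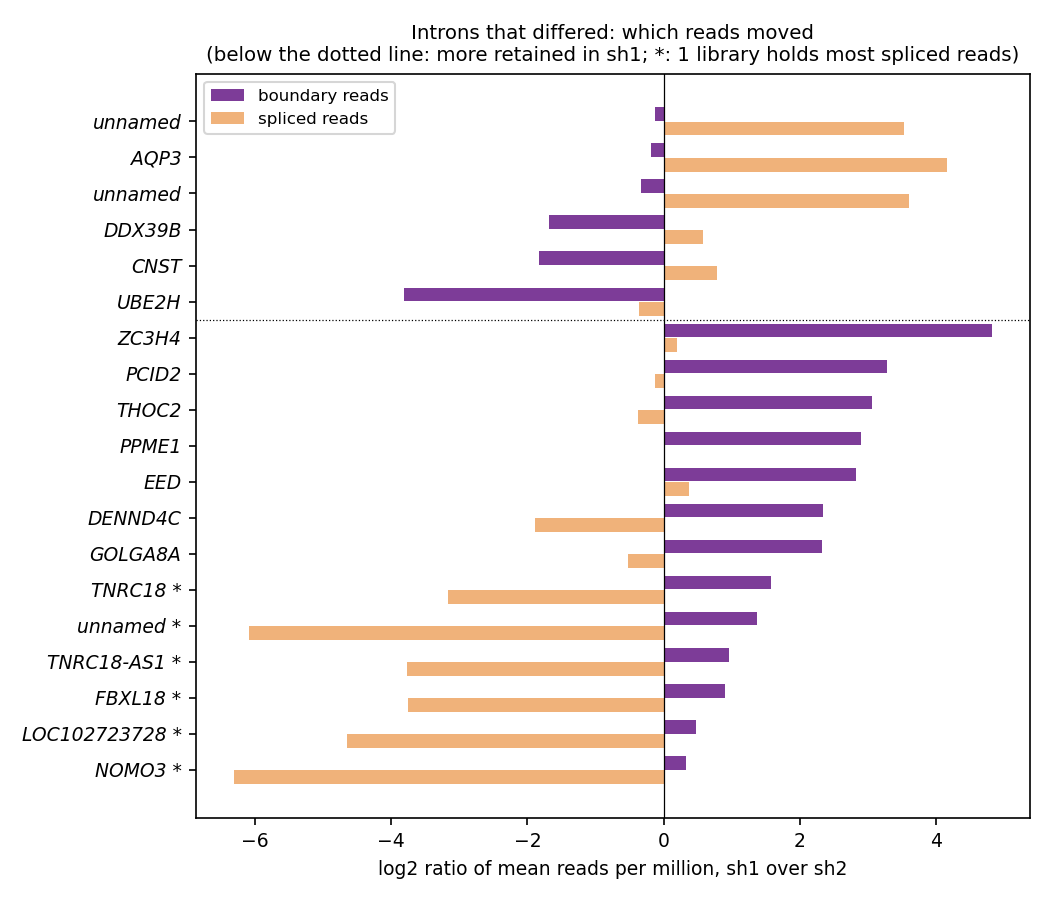
For each of the 19 introns that passed the direct test, the log2 ratio of mean CPM, sh1 over sh2 (horizontal axis), of boundary reads (purple) and spliced reads (orange). Boundary reads carry the difference in ZC3H4 (4.82 against 0.20 in spliced reads), whereas spliced reads carry it in the starred introns, where 1 library holds most of them.

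A further 4 introns had the smallest p on the sh2 side without passing. CPSF1, a cleavage and polyadenylation factor, had 0.048% and 0.0773% retention with sh1 and 0.589% and 0.987% with sh2, against 0.421% and 0.657% in the control (edgeR adjusted p = 0.119, with the experiment as a block 0.0043). RAE1, an mRNA export factor of the nuclear pore, had 0.826% and 0.542% with sh1 and 4.70% and 2.11% with sh2, against 1.83% and 1.03% in the control (0.155 and 2.69e-04). TRIM50 had 0 boundary reads in both sh1 libraries and 15 and 1 with sh2 (0.0813 and 0.0133), and in KRT3 1 sh1 library held 437 spliced reads against 7 to 23 in the other 3 (0.123 and 0.55). At the non-coding gene LOC105378179, called in earlier results of these data, the edgeR adjusted p was 0.215, and 7.57e-04 with the block. Its spliced reads numbered 4 and 5313 with sh1, 3 and 13 with sh2 and 3967 and 11363 in the control, so that the sh1 library of experiment 2 lay in the control range and the other 3 knockdown libraries far below it.

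The introns that rose over the mean of both shRNAs had a median retention above the control with each shRNA, which their choice favours. Over the mean of both shRNAs against the control, 369 introns in 280 named genes were more retained by edgeR (0.316% of those tested). An intron can enter through either shRNA alone. That of ZC3H4 differed from the control by 5.14 on the log2 scale with sh1 and 0.62 with sh2. The first intron opposite DDX19A differed by 0.12 and 3.99. Entry is also possible through fewer spliced reads, as at LOC105378179. Over the 369, median retention was 25.6% and 11.1% with sh1, 18.4% and 10.8% with sh2 and 2.25% and 2.17% in the control libraries. The group means of these medians were 18.4% ± 10.2 (SD, n = 2), 14.6% ± 5.41 and 2.21% ± 0.0577, so the shRNAs overlapped and experiment 1 was the higher one for each. For comparison, the medians of all tested introns were 1.26% ± 0.145 with sh1, 1.39% ± 0.028 with sh2 and 1.21% ± 0.1 in the control.

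ZNF207, which helps chromosomes attach to the spindle, reached 12.5% and 5.18% with sh1 and 11.5% and 6.04% with sh2 at chr17:32351630-32351742. The log2 difference was -0.05, with a 95% interval of -0.80 to 0.71. PARP1, a DNA break sensor, reached 32.6% and 15.2% with sh1 and 29.6% and 15.1% with sh2 at chr1:226361542-226361968 (0.11, interval -0.72 to 0.94). In both genes the libraries of one experiment lay closer together than the libraries of one shRNA.

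CCNT2, a cyclin of the elongation factor P-TEFb, stood at 52.6% and 28.1% with sh1 and 45.4% and 26.8% with sh2, from 3.01% and 1.71% in the control (log2 difference 0.25, interval -0.70 to 1.19). The introns of UFD1 of protein degradation, TMEM258 of the oligosaccharyltransferase, SRP68 of the signal recognition particle, the tetraspanin gene TSPAN13, the SMPD4-related SMPD4BP, the deubiquitinase USP14 and VPS25 of the ESCRT-II sorting complex had estimates from -0.65 in VPS25 to 0.38 in USP14. All 7 intervals held 0; that of VPS25 reached from -1.55 to 0.25 and that of SMPD4BP from -0.87 to 0.96. RPL4, a protein of the large ribosomal subunit, was the exception among the introns named here for the smallest adjusted p over both shRNAs. Its intron at chr15:66502751-66503057 was at 7.64% and 3.75% with sh1 and 3.63% and 2.91% with sh2, with an interval of 0.11 to 1.41, although its edgeR adjusted p was 1.

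Among the 369 introns, 7 (1.9%) passed the direct test, against 0.0103% of the other introns. Of the 7, 5 were higher with sh1 (ZC3H4, THOC2, PCID2, PPME1 and EED) and 2 higher with sh2 (that of CNST and the first one opposite DDX19A). An intron high with either shRNA alone can enter for that reason, so this excess is partly set by the choice of the 369. The median log2 difference was 0.10 (quartiles -0.20 and 0.59), against -0.14 over all tested introns. By the estimate, 218 were higher with sh1 and 151 higher with sh2, and 62 differed by at least 1 on the log2 scale. The 95% interval lay within -1 to 1 for 44 introns, wholly above 0 for 52 and wholly below 0 for 12, and its median width was 1.95. The median turned to -0.54 without the sh1 library of experiment 1 and to -0.41 without the sh2 library of experiment 2, and stood at 0.87 and 0.67 without sh1 of experiment 2 and sh2 of experiment 1. The number of raised introns fell to 201 without the control library of experiment 2 and to 25 with 2 times the lower boundary count as boundary reads. Without either control library 3 introns were both raised and called between the shRNAs, and without the sh1 library of experiment 1, 4 were.

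**Figure D3:**
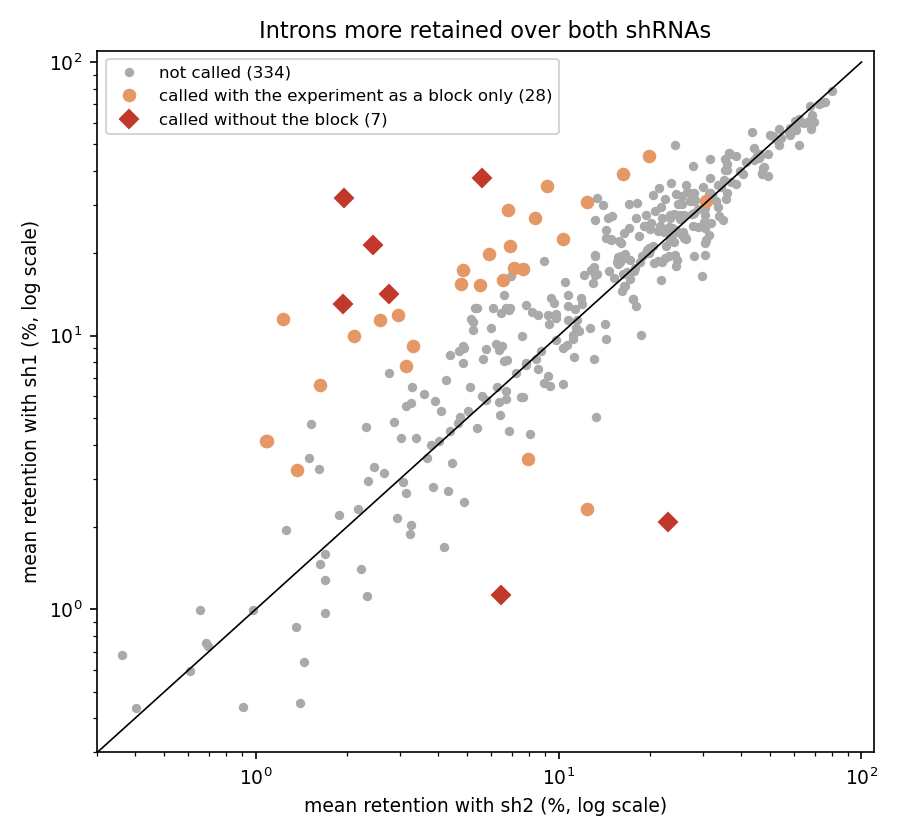
Mean retention with sh1 (vertical axis, percent, log scale) against sh2 (horizontal axis, percent, log scale) for the 369 introns more retained over both shRNAs, with the line of equal values. Most points lie along the line; 7 red diamonds passed the direct test and 28 orange points passed it with the experiment as a block only, most of them above the line.

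**Figure D4:**
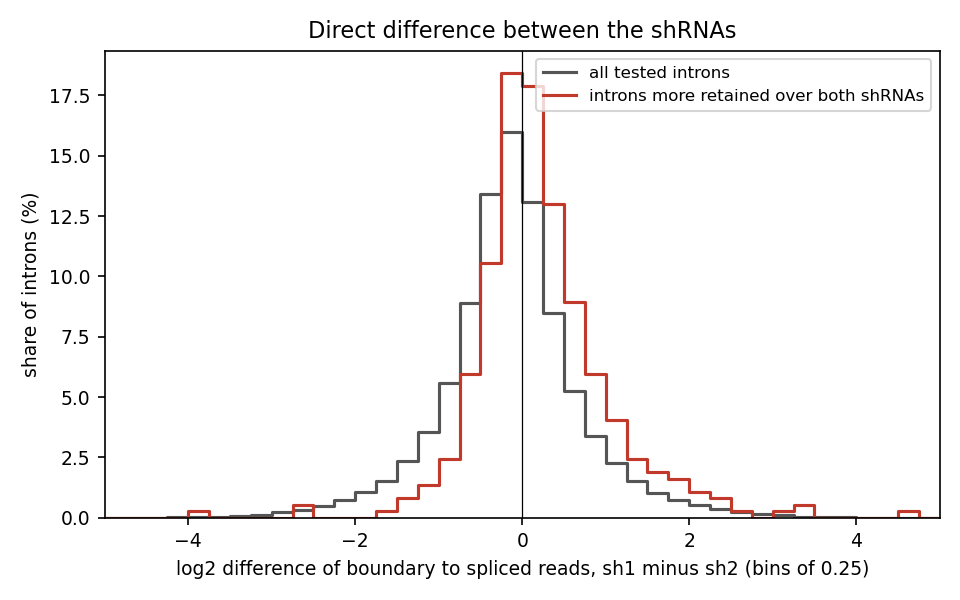
Share of introns in percent (vertical axis) by log2 difference of sh1 minus sh2 (horizontal axis, bins of 0.25) for all 116627 tested introns (grey) and the 369 more retained over both shRNAs (red). The red curve lies to the right of the grey one, with medians of 0.10 and -0.14, and its extremes lie at -6.03 (beyond the axis) and 4.52. Also beyond the axis are the outermost bins, with 4.4% (lowest) and 3.74% (highest) of all tested introns and 0% of the 369.

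Within each experiment the 2 shRNAs can be compared with 1 library each, and these 2 differences share no library. In experiment 1 the median log2 difference over the 369 introns was 0.33, against -0.02 over all tested introns, and in experiment 2 it was -0.04 against -0.25. Both times the raised introns stood on the sh1 side of the rest. Of the 369, 153 were higher with sh1 in both experiments, 94 were higher with sh2 in both and 122 had opposite signs. The correlation between the 2 experiments was 0.62 over the 369 introns and 0.048 over all 116627, where 53.3% had like signs. The 369 were chosen from these same libraries, and an intron high with 1 shRNA in both experiments can enter for that reason. The correlation of 0.62 is therefore partly set by the choice. The 369 also had higher retention than the tested introns at large, so the 2 correlations are not of like introns. Introns of one library share its depth and are not independent, so these values are descriptions.

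**Figure D5:**
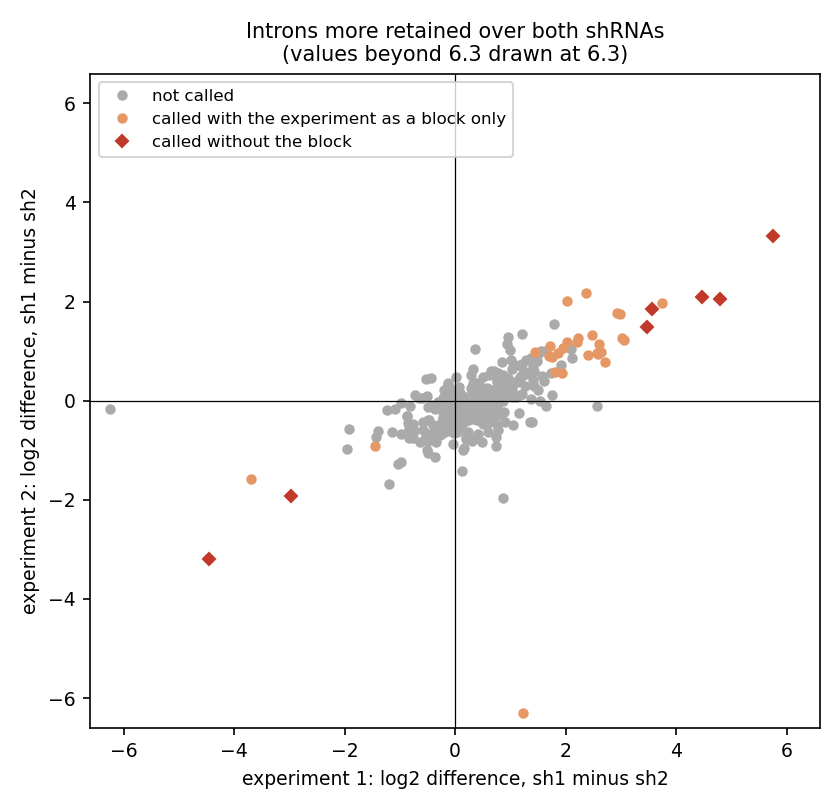
Log2 difference of sh1 minus sh2 in experiment 2 (vertical axis) against experiment 1 (horizontal axis) for the 369 introns, 1 library per shRNA and experiment. The points run along a rising diagonal (correlation 0.62), and the medians are 0.33 in experiment 1 and -0.04 in experiment 2.

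With the experiment as a block, the number of introns that differed rose from 19 to 135 (0.116%), 74 higher with sh1 and 61 higher with sh2, and all 19 were among them. The smallest adjusted p in this fit belonged to THOC2 (edgeR adjusted p = 3.89e-23), followed by ZC3H4 (5.96e-21) and PCID2 (2.36e-13). Of the 135, 35 belonged to the introns raised over both shRNAs, 30 of them higher with sh1 and 5 with sh2. The 30 had a median retention of 1.22% in the control, 4.81% with sh2 and 16.7% with sh1. They were chosen as raised over the control and higher with sh1, so that sh1 stands highest here follows from the choice. Among all 369, 9.49% passed in this fit, against 0.086% of the other introns, an excess that the choice of the 369 also partly sets. This fit has 1 residual degree of freedom, and with the control libraries in it, 60 introns passed.

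The introns described next passed only with the block, had no single library holding most spliced reads and were among those with the smallest adjusted p in that fit; they were chosen after their values were seen. GARS1, the glycyl-tRNA synthetase, was at 27.9% and 11.9% with sh1 and 6.02% and 5.76% with sh2 at chr7:30621501-30622316, from 1.22% and 1.16% in the control (edgeR adjusted p 6.06e-08 with the block and 0.0766 without). PSME3IP1, a partner of a proteasome activator, was at 15.1% and 4.83% with sh1 and 2.09% and 2.13% with sh2, from 1.02% and 1.01% (1.78e-08 and 0.054). IK, a spliceosome protein also called RED, was at 26.9% and 7.87% with sh1 and 5.54% and 4.15% with sh2, from 2.53% and 1.2% (1.01e-06 and 0.287). In these 3 introns sh2 stood above the control and sh1 above sh2 in both experiments.

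Another pattern was an intron that sh2 left near the control. TGS1, which hypermethylates the cap of small nuclear RNAs, was at 39.9% and 17.5% with sh1 and 6.63% and 5.33% with sh2, from 4.59% and 5.41% (edgeR adjusted p 1.08e-05 with the block and 0.096 without). SLC12A4, a potassium-chloride cotransporter, was at 40.3% and 17.6% with sh1 and 4.98% and 3.30% with sh2, from 3.75% and 3.60% (2.96e-05 and 0.0671). KIFAP3, which links kinesin-2 to its cargo, was at 43.6% and 11.2% with sh1 and 3.83% and 2.96% with sh2, from 2.98% and 4.47% (4.15e-06 and 0.0813). TMEM87A (edgeR adjusted p 7.04e-06 with the block and 0.125 without), ALG8 of protein glycosylation (2.1e-06 and 0.0864) and the formin DIAPH1 (4.23e-06 and 0.19) passed too. They averaged 9.23% to 28.8% with sh1, 2.06% to 7.6% with sh2 and 1.29% to 5.37% in the control. In TMEM87A and DIAPH1 both sh2 libraries stood above both controls. MYL6, a myosin light chain, also passed (4.1e-06 and 0.125), but through its spliced reads, which numbered 555 and 722 with sh1, 1445 and 1829 with sh2 and 2309 and 2101 in the control. MYH9, a myosin heavy chain (2.06e-06 and 0.215), SMYD3, a lysine methyltransferase (1.74e-06 and 0.144), and SPCS3 of the signal peptidase (1.6e-05 and 0.659) passed. They averaged 11.4%, 6.61% and 15.5% with sh1, 2.56%, 1.63% and 4.78% with sh2 and 0.428%, 0.584% and 0.875% in the control. In these introns both sh2 libraries stood above both controls, as in GARS1, PSME3IP1 and IK.

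On the sh2 side of this fit, USP20, a deubiquitinase, was at 8.85% and 9.40% with sh1, 24.7% and 21.0% with sh2 and 24.3% and 26.8% in the control at chr9:129858113-129858466, so that sh1 was the one that stood apart. Nearly all of its boundary reads lay at A2, with 124 and 181 there with sh1 and 408 and 407 with sh2, and 1 to 6 at A1 (edgeR adjusted p 7.64e-04 with the block and 0.711 without). GOLIM4, a Golgi membrane protein, was at 2.58% and 4.11% with sh1 and 19.96% and 9.81% with sh2, but its control values of 22.9% and 3.29% spanned both (7.64e-04 and 0.3), and most of its boundary reads lay at A1. TXNDC12, a thioredoxin-like protein of the endoplasmic reticulum, was at 2.33% and 0.759% with sh1 and 6.81% and 3.52% with sh2, from 1.02% and 1.18% (0.00104 and 0.674), with nearly all boundary reads at A2. PRRC2A (0.00104 and 0.91), the sperm channel gene CATSPER2 (5.68e-04 and 0.313), NBPF6 (8.78e-04 and 0.199) and the pseudogene PKD1P4 (8.62e-05 and 0.437) passed as well. NBPF6 and PKD1P4 had nearly all boundary reads at one boundary, and PRRC2A had 834 spliced reads in the sh2 library of experiment 2 against 2273 to 3138 in the other 3. CATSPER2, NBPF6 and PKD1P4 have close copies and are uncertain.

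Of the gene lists examined, mRNA export held 3 of the 19 introns. Of its 22 genes, 21 had tested introns, 247 in all, of which 2 were more retained with sh1 (THOC2 and PCID2) and 1 with sh2 (DDX39B), with a median log2 difference of -0.10 beside -0.14 over all introns; over all tested introns 0.0163% passed. Earlier results of these data had already shown these 3 genes to differ, so the count is not independent support. With the block, an intron of DDX19A also passed, on the sh2 side (edgeR adjusted p 0.0134 with the block and 0.659 without). Its difference lay mostly in spliced reads (log2 ratio of mean CPM, sh1 over sh2, 2.02), while boundary reads differed little (-0.21). It lies within the span of the first intron opposite DDX19A. Of the 40 genes recalled to hold U12-type introns, most had been seen as more retained in earlier results of these data. The 40 genes had 601 tested introns, 45 of them raised over both shRNAs, where the share over all tested introns was 0.316%. This excess is partly set by the choice of the list and is not independent support. The intron of THOC2 passed the direct test (0.0163% over all tested introns). With the block, introns of the formin gene DIAPH3 (edgeR adjusted p 0.00504 with the block and 0.565 without) and of TXNRD2, a mitochondrial thioredoxin reductase (7.57e-04 and 0.954), passed too, beside 0.116% of all tested introns, and all 3 were higher with sh1.

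No intron passed among the 86 of the minor spliceosome (14 genes), the 237 of 3′ splice site recognition by the major spliceosome (18 of 19 genes), the 247 of the RNA interference machinery (13 genes), the 81 of the response to double-stranded RNA and interferon (8 of 17 genes) and the 251 of nonsense-mediated decay (15 genes), with or without the block. The shares over all tested introns were 0.0163% and 0.116%, so that lists of this size would hold few or no calls at the overall rate. Median differences ran from -0.23 in nonsense-mediated decay to -0.02 in RNA interference.

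Spliced reads summed per gene, which stand for RNA levels, gave no gene that differed between the shRNAs by edgeR. Of 16751 genes, 0 (0%) passed, with adjusted p from 0.885 upwards and an unadjusted p under 0.05 in 879. DESeq2 called 92, of which 56 were higher with sh1 and 36 with sh2. With the block edgeR called 1 gene (0.00597%), the drug transporter ABCG2, higher with sh2 (log2 difference -2 with an SE of 0.936; edgeR adjusted p 0.885 without the block and 0.0466 with it). The edgeR count without the block was 9 and 19 without sh1 of experiment 1 and 2, and 2 and 19 without sh2 of experiment 1 and 2. In bulk RNA, fewer cells with a transcript and less of it per cell cannot be told apart.

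Among the genes with the smallest DESeq2 adjusted p, at least 5 CPM with either shRNA and no near-identical copy, a selection made after their values were seen, the cell adhesion receptor CD44 was at 95.7 and 82.0 CPM with sh1, 8.06 and 21.4 with sh2 and 17.4 and 19.1 in the control. Both sh1 libraries were above all others (DESeq2 adjusted p = 8.88e-06, edgeR 0.885). The calcium-binding protein gene CALB1 was at 12.2 and 6.73 CPM with sh1 and 1.08 and 1.58 with sh2 (DESeq2 adjusted p = 9.49e-07), and SMOX, a polyamine oxidase gene, was at 34.3 and 21.8 against 5.63 and 9.13 (2.69e-04). TLE2, a transcriptional corepressor gene, and DHRS9, a retinol dehydrogenase gene, were also higher with sh1.

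On the sh2 side ANPEP, the aminopeptidase CD13, was at 8.97 and 9.46 CPM with sh1, 31.2 and 23.2 with sh2 and 21.9 and 14.5 in the control (DESeq2 adjusted p = 8.88e-06). DYSF, which encodes the membrane repair protein dysferlin, was at 53.8 and 46.3 with sh1 and 300.2 and 112 with sh2 (0.00163). EFEMP1, PKHD1L1 and STRA6 were also higher with sh2. By edgeR the adjusted p of these 10 genes was 0.885.

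The genes that held the retained introns did not pass. EED had 106 and 111 CPM of spliced reads with sh1 and 59.2 and 85.1 with sh2, against 95.04 and 105 in the control (log2 difference 0.59 with an SE of 0.211; edgeR adjusted p = 0.885). ZC3H4 had 113 and 69.4 with sh1, 49.9 and 56.9 with sh2 and 33.5 and 44.0 in the control (0.77, SE 0.261; edgeR adjusted p = 0.885). THOC2, PCID2 and PPME1 had differences of 0.12 (SE 0.17), 0.23 (SE 0.146) and 0.18 (SE 0.211). RAE1, whose intron leaned to sh2, had 116 and 133 CPM with sh1, 53.1 and 72.4 with sh2 and 110 and 132 in the control, with both sh2 libraries below all others (0.99, SE 0.204; edgeR adjusted p = 0.885, DESeq2 0.0187). Over the 280 genes with an intron raised over the mean of both shRNAs, the median log2 difference was 0.03, beside 0.00 over all genes. An unadjusted p under 0.05 was found for 8 of these 280 genes, beside 879 of all 16751.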

How the data were processed

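PolyA-selected RNA of K562 cells was sequenced after a NEBNext Ultra preparation, per the labels' protocols. Which aligner, counter and annotation were used is not given in the sources used here. Per the file headers, the authors deposited 1 table per library with raw counts of boundary reads (A1, A2) and spliced reads (Exon) of each intron. The deposited tables also give the covered fraction of each intron and a percent named MSI, here called retention, which was recomputed from the counts (largest deviation 2.8e-14). The submitters' processing notes name hg19, but 95.6% of introns lay inside a RefSeq gene of GRCh38, against 62.6% and 62.9% after shifts of 100 kb, so gene names come from GRCh38, matched for 94.6% of introns. Positions are the deposited ones with starts counted from 1. Spliced counts are not said to use strand, so reads of antisense partners cannot be told apart. No intron sequence was used here.

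Boundary and spliced counts of each library were fitted as pairs, with the library as a factor, by edgeR's quasi-likelihood test (edgeR 4.0.16, R 4.3.3) on the 4 knockdown libraries. Benjamini-Hochberg adjustment covered all tested introns at 0.05. The fit had 2 residual and 70 prior degrees of freedom, so its p-values rest mostly on a spread shared over the tested introns. Introns raised over both shRNAs were chosen in a fit of all 6 libraries. For gene levels, spliced counts of non-overlapping introns were added up (76049643 to 91852085 per knockdown library), leaving out 4250 introns that repeat the counts of another gene within 500000 nt, scaled with TMM, filtered with filterByExpr and tested with edgeR; DESeq2 1.42.0 was the alternative and left 1624 genes without an adjusted p. A block for experiment was used because the titles give a shared experiment number; across introns the deviations of sh1 and sh2 from their group means had a correlation of 0.104 (sh1 with control 0.0522, sh2 with control 0.109), and the number of introns called with the block was already known when it was adopted. Fits were also run on simulated counts, drawn without a difference between the experiments and without single libraries holding most spliced reads. That run cannot show how the fits handle these features. All introns past the threshold are named, up to 10 per direction being filled with the smallest p, with the 12 smallest adjusted p of the raised introns, of which 1 is not reported here. The members and lists were chosen with earlier results of these data known.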

Additional observations from a re-analysis of the deposited data

Results flagged for a closer look

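Among the introns named above, 6 had opposite signs of the sh1 minus sh2 difference in the 2 experiments, which is not tested, since each experiment holds 1 library per shRNA. LOC105378179 gave 1.22 on the log2 scale in experiment 1 and -8.44 in experiment 2, where its spliced reads numbered 5313 with sh1, 13 with sh2 and 11363 in the control; in experiment 1 they numbered 4, 3 and 3967. Its boundary reads numbered 13 and 8 with sh1, 4 and 7 with sh2 and 15 and 6 in the control. All 6 belong to the introns raised over the mean of both shRNAs, LOC105378179 through its fewer spliced reads. Of the other 5, USP14 gave 0.79 and -0.04, SRP68 0.23 and -0.40, SMPD4BP 0.30 and -0.23, ZNF207 0.14 and -0.24, and TSPAN13 0.09 and -0.15.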

How the results depend on the processing

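The count of 19 introns (13 with sh1 higher, 6 with sh2 higher) became 42 (30 and 12) with at least 20 reads, 34 (25 and 9) with no filter, 5 (4 and 1) with at least 100 reads and 11 (8 and 3) with the spread of all 6 libraries. It became 135 (74 and 61) with the replicate block, 60 (38 and 22) with the replicate block and all 6 libraries, 84 (69 and 15) with boundary and spliced reads scaled separately, and 0 (0 and 0) under a limit on the covered fraction and also with 2 times the lower boundary count. A1 alone gave 19 (16 and 3), A2 alone 14 (11 and 3), the robust prior 13 (8 and 5), DESeq2 9 (3 and 6) and leaving out introns with 1 library holding most spliced reads 10 (6 and 4), while leaving out repeated introns gave 19 again. Without 1 library at a time it ranged from 20 to 43 (9 to 40 with sh1 higher, 3 to 19 with sh2 higher). The 369 raised introns became 516 with the replicate block, 443 with at least 20 reads and 25 with 2 times the lower boundary count, and 201 to 490 without 1 library. Those both raised and called between the shRNAs numbered 0 with 2 times the lower boundary count and 3 to 6 without 1 library, and the median difference of the raised introns ranged from -0.54 to 0.87. Like signs held at 53.3% to 53.5%. For genes, DESeq2 gave 92, DESeq2 with the replicate block, added after seeing the data, 575, edgeR with the replicate block 1, and leaving out 1 library 2 to 19; RLE factors, no filter, the 6-library spread and keeping repeated introns gave 0 (880, 1130, 942 and 914 unadjusted). For all these changes the cause was not tested. Beyond those given with both values in the report, the replicate block changed no call named there. Depth limits low retention: an intron near 50 reads holds few boundary reads.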
